A study of Mus musculus with 12 samples.

Results

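The unfolded protein response and the ATF4 program are followed here through 10 genes, chosen by name with earlier results of these data known. They are Atf4, Ddit3, Trib3, Asns, Chac1, Sesn2, Ddit4, Atf6, Xbp1 and Herpud1. Each gene was read from probes annotated to it alone, and where it had several, from the probe with the highest mean signal over all arrays. The 10 genes had 22 such probes, among 18194 genes with a probe of their own. Of the 10, 8 reached a mean signal above 50, the cutoff of the study, in at least 1 group and were tested, as were 10511 genes in all. Trib3 and Sesn2 lay under 50 in every group, entered neither the tests nor the counts, and are given by their signals and by a separate fit with no cutoff. Chac1 passed the cutoff only through the intact groups.

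The samples were spinal cord segments (Th9) of female C57BL/6 mice in 4 groups, aged injured, young injured, aged intact and young intact, with 3 mice in each. Aged mice were 15 to 18 months of age and young mice 2 to 3 months. Injury was a contusion of the cord at Th9, with tissue taken 9 days later, and intact cords came from naive mice, so contusion and operation cannot be told apart. Total RNA from each of the 12 cords was put on its own Affymetrix array covering the mouse genome.

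When unfolded proteins pile up in the endoplasmic reticulum (ER), 3 sensors in its membrane respond. PERK phosphorylates the translation factor eIF2α, which lowers protein synthesis and favors translation of the transcription factor ATF4; other kinases reach the same factor when amino acids run short, viruses replicate or heme is lacking, and this shared arm is the integrated stress response. IRE1 splices the mRNA of Xbp1 into the form that encodes an active transcription factor, and ATF6 is cut by proteases in the Golgi to release another. Much of this control acts on translation, splicing and cleavage, none of which an array signal of total mRNA measures.

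The promoters of the 10 genes were read from RefSeq (GRCm38.p6) because ATF4 binds, with C/EBP proteins, to a short element named the C/EBP-ATF response element. Promoters of 9 of the 10 genes were found, all but that of Atf6. The element was searched as TGATGNAAN, on both strands, in the 250 bases before each start. It occurred in 3 of the 9 genes, Asns, Chac1 and Herpud1, and in 3.89% of all 27025 genes with a promoter in the table. These 3 stretches are shown because they belong to the 3 genes that were called lower in aged cord after injury, an overlap noticed after the values were seen and not tested. Chac1 passed the cutoff only through intact cord. The calls of Chac1 and Herpud1 were each kept in 9 of 12 fits that left out 1 array. Capitals mark the match, and each stretch is written 5′ to 3′ on the strand of the gene.
Asns, chr6:7693212-7693244, minus strand, 23 to 15 bases before the start: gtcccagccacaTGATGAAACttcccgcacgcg
Chac1, chr2:119351036-119351068, plus strand, 194 to 186 bases before the start: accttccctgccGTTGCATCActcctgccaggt
Herpud1, chr8:94386304-94386336, plus strand, 113 to 105 bases before the start: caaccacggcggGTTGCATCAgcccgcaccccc

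The match lay on the strand of the gene in Asns and on the opposite strand in Chac1 and Herpud1, where the capitals read as its reverse complement. A match is a run of letters and not a bound site. The XBP1 and ATF6 element searched as TGACGTG (1.85% of genes) was in none of the 9 windows. Nor was the ER stress response element, CCAAT followed after 9 bases by CCACG (0.130% of genes). No match therefore overlapped a match to another element, and nothing about binding follows from a missing one.

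Defining markers of cord tissue were present: 7 of 8 neuronal, 6 of 6 astrocyte and 5 of 5 oligodendrocyte markers averaged above 50 in every group, and at most 1 of 5 skeletal muscle markers did. The aged injured arrays differed among themselves in these markers. The summed signal of 8 neuronal markers was 1313, 9151 and 5883 in aged injured replicates 1, 2 and 3, against 6464 to 9837 in young injured cords. It was 18463 to 19172 in aged intact and 18196 to 18977 in young intact cords. Replicate 1 of the aged injured group thus held the least neuronal signal of all 12 arrays, and also the least astrocyte signal (7456, against 11373 to 16015 on the other 11). Several of the results below are given both with and without it. In injured cord, 8 of 8 macrophage and microglia markers and 5 of 5 fibroblast markers were higher at both ages. The summed macrophage and microglia signal was 15530 to 18507 in aged injured, 11106 to 14605 in young injured, 2287 to 2493 in aged intact and 1324 to 1476 in young intact cords. The fibroblast sum was 10254 to 13891, 10790 to 14550, 2272 to 3540 and 3459 to 3728 in the same groups. Every T cell marker (4 of 4) and 4 of 6 plasma and B cell markers (Cd79a, Cd79b, Jchain and Mzb1) stayed under 50 in all groups. In a whole segment, fewer cells of a type and less RNA per cell cannot be told apart. The ratio of the 3′ to the 5′ probes of Actb, a sign of RNA integrity, was 1.22 to 1.55 in injured and 1.81 to 2.06 in intact cords. The same ratio for Gapdh did not separate them, at 0.80 to 0.94 in injured and 0.76 to 0.81 in intact cords. The part of cell makeup and RNA integrity in the results below was not tested.

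**Figure D1:**
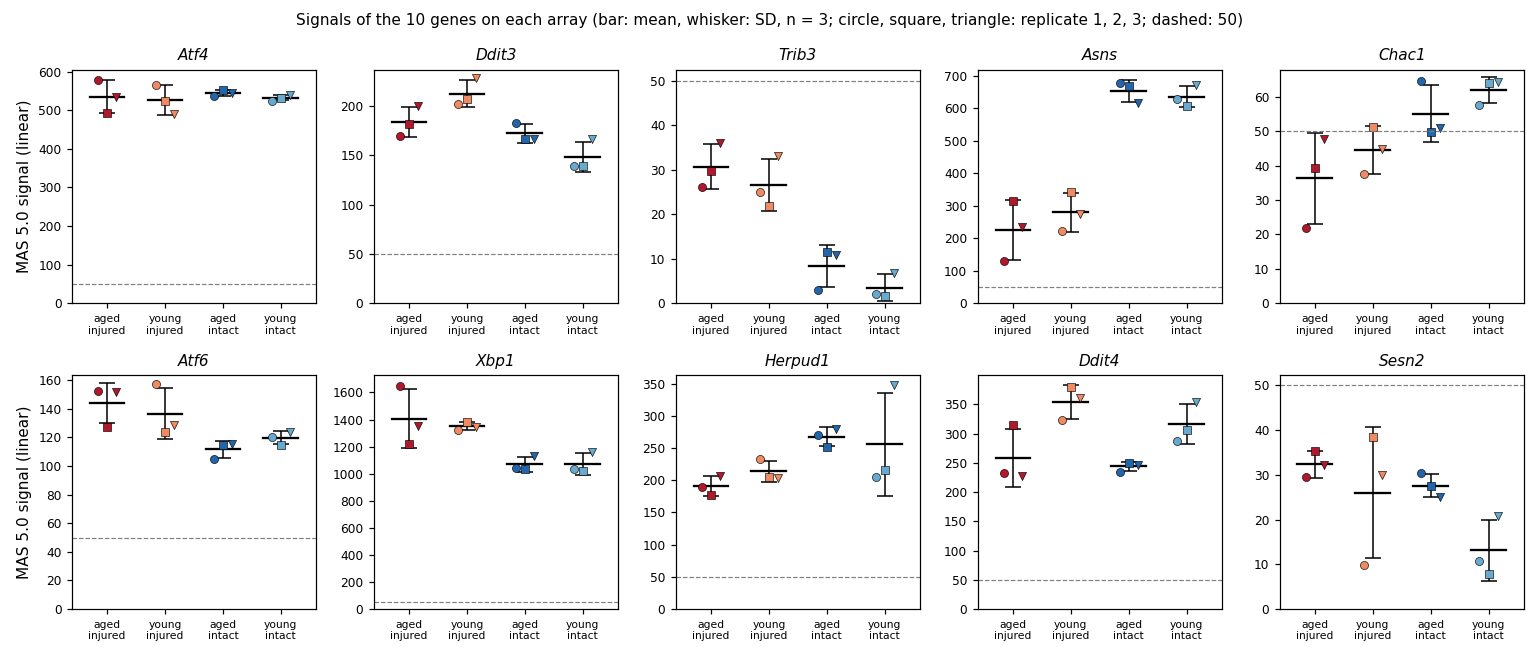
Signals (MAS 5.0, linear scale, vertical axis from 0) of the 10 genes on each of the 12 arrays, by group. Symbols are single mice, bars are means, whiskers are SD (n = 3) and the dashed line is a signal of 50. Asns lay at 130 to 342 on the injured and 607 to 677 on the intact arrays, whereas Atf4 lay between 490.2 and 579 on all of them.

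Injury changed several of the 8 tested genes, in both directions. In aged cord, 2 rose (Atf6 and Xbp1) and 3 fell (Asns, Chac1 and Herpud1), of which Chac1 passed the cutoff only through intact cord. In young cord, 2 rose (Ddit3 and Xbp1) and 1 fell (Asns). Changes of this kind were common among all genes: in aged cord 35.6% of the 10511 genes were called higher and 39.9% lower, and in young cord 33.9% were called higher and 34.1% lower, at an adjusted p under 0.05 from limma. The counts of the 8 genes therefore do not set them apart. Their median log2 fold change was 0.02 in aged and 0.07 in young cord, against -0.04 and -0.005 over all genes tested.

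Atf4, the transcription factor at the head of the group, was not called in its main probe. Its signal was 578.8, 492.9 and 534.9 in aged injured cords and 565.4, 524.2 and 490.2 in young injured cords. It was 537.3, 551.5 and 544.5 in aged intact cords and 525.3, 532.9 and 540.1 in young intact cords. The injured cords were spread on both sides of the intact ones. The log2 fold change of injured over intact cord was -0.03 (95% confidence interval -0.19 to 0.13, limma, adjusted p = 0.748) in aged and -0.02 (-0.18 to 0.14, adjusted p = 0.824) in young mice. A second probe of Atf4 behaved otherwise. It averaged 378 ± 34.0 in aged injured, 291 ± 31.2 in young injured, 268 ± 19.9 in aged intact and 212 ± 31.1 in young intact cords (SD, n = 3 each), and rose with injury by 0.49 (adjusted p over all probes = 0.00492) in aged and 0.47 (adjusted p = 0.00868) in young cord on the log2 scale. The suffix of its name, x_at, marks a probe set that can also bind related transcripts. The third Atf4 probe had a mean signal of 0.820 over the arrays and carries no level.

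Ddit3, which encodes CHOP, a transcription factor linked to death under lasting ER stress, was higher in injured cord of young mice. Its signal was 201.8, 206.9 and 227.7 in young injured cords, against 139.5, 139.0 and 166.1 in young intact cords, 1.43-fold higher with no overlap (log2 fold change 0.52, standard error 0.10, limma, adjusted p = 7.06e-04). In aged mice it was 169.6, 181.4 and 199.9 in injured cords, against 182.9, 166.5 and 166.8 in intact cords, and the groups overlapped (log2 fold change 0.09, adjusted p = 0.398). The difference between the ages in this response was -0.43 on the log2 scale (95% confidence interval -0.73 to -0.13) and did not pass adjustment over all genes (limma, adjusted p = 0.172). A second Ddit3 probe under 50 in every group had higher fitted values in injured cord at both ages (adjusted p = 0.00323 in aged and 1.27e-04 in young). With the mean of all Ddit3 probes, the aged comparison passed too (log2 fold change 0.48, adjusted p = 0.00281).

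Trib3 encodes a pseudokinase that is induced by ATF4 and CHOP and restrains them. Its signals lay far under 50 but were ordered by injury. They were 26.2, 29.6 and 36.1 in aged injured and 24.9, 21.8 and 33.1 in young injured cords, against 2.9, 11.4 and 10.8 in aged intact and 2.1, 1.6 and 6.9 in young intact cords. All 6 injured arrays lay above all 6 intact ones. In a fit of all 18194 genes with no cutoff on signal, the difference passed at both ages (adjusted p = 0.0106 in aged and 0.00102 in young). No fold is given at these signals. The name of this Trib3 probe ends in x_at, like that of the second Atf4 probe, so it can also bind related transcripts. The second Trib3 probe, also under 50 throughout, did not show this order in aged cord, at 15.1, 11.1 and 21.9 in injured against 8.4, 15.3 and 15.8 in intact cords (adjusted p over all probes = 0.544), and in young cord its adjusted p was 0.0409.

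Asns, which encodes asparagine synthetase, showed the largest change of the 8 tested genes and fell at both ages. Its signal was 129.6, 313.8 and 234.2 in aged injured cords, against 677.1, 666.8 and 615.4 in aged intact cords, 2.89-fold lower (log2 fold change -1.62, standard error 0.26, limma, adjusted p = 1.97e-04). It was 220.9, 342.2 and 275.6 in young injured cords, against 628.6, 606.7 and 671.1 in young intact cords, 2.27-fold lower (log2 fold change -1.21, standard error 0.26, adjusted p = 0.00192). Injured and intact arrays did not overlap at either age. Without aged injured replicate 1, the array lowest in Asns and in neuronal signal, the log2 fold change in aged cord was -1.27 (adjusted p = 1.72e-05). A second probe, whose name ends in x_at, gave -1.63 and -1.20 in aged and young cord. Asns and the summed neuronal markers were both lower in every injured cord than in every intact cord, and replicate 1 of the aged injured group was lowest in both. That array was also lowest in the summed astrocyte and oligodendrocyte markers. A link between Asns and any of these markers was not tested.

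Chac1, which encodes an enzyme that breaks down glutathione, lay close to the cutoff and passed it only through its intact groups, so its place among the tested genes favors a fall and its call is given as a description. It was 21.8, 39.4 and 47.7 in aged injured cords, against 64.5, 49.6 and 50.9 in aged intact cords, at least 1.10-fold lower with the injured mean set to 50 (limma, adjusted p = 0.0327). In young cord it was 37.5, 51.3 and 44.9 after injury, against 57.5, 63.9 and 64.2 without (adjusted p = 0.111). The arrays did not overlap at either age. The call in aged cord ended without aged injured replicate 1 (adjusted p = 0.104), aged intact replicate 1 (0.113) or aged intact replicate 3 (0.0522), and in a fit of the compared arrays alone (0.0979). Without aged injured replicate 1 the call in young cord was gained instead (adjusted p = 0.0144).

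The other 2 genes of this arm act on the growth kinase mTORC1. Ddit4 encodes REDD1, an inhibitor of mTORC1 that stress and glucocorticoids induce, and it did not pass the test for injury. Its signal was 233.0, 315.5 and 227.4 in aged injured and 322.9, 379.1 and 360.8 in young injured cords. In intact cords it was 235.2, 250.5 and 246.5 in aged and 287.9, 306.3 and 353.8 in young mice. Injured and intact arrays overlapped at both ages (log2 fold change 0.07, limma, adjusted p = 0.640 in aged and 0.17, adjusted p = 0.259 in young). Sesn2 encodes a leucine sensor upstream of mTORC1. It was 29.4, 35.3 and 32.2 in aged injured, 9.8, 38.4 and 29.9 in young injured, 30.3, 27.5 and 25.0 in aged intact and 10.7, 7.8 and 20.8 in young intact cords. All were under 50 and injured and intact arrays overlapped at both ages. In the fit with no cutoff on signal, Sesn2 did not pass for injury (limma, adjusted p = 0.727 in aged and 0.143 in young). Its aged intact signals all lay above its young intact ones, but that difference did not pass either (adjusted p = 0.467).

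Of the transcription factors of the other arms, Xbp1 rose at both ages and Atf6 was called in aged cord. Xbp1, the substrate of IRE1, was 1646.0, 1216.5 and 1354.7 in aged injured cords, against 1043.6, 1032.3 and 1129.4 in aged intact cords, 1.32-fold higher (log2 fold change 0.39, standard error 0.10, limma, adjusted p = 0.00436). It was 1325.2, 1382.2 and 1348.1 in young injured cords, against 1031.7, 1017.4 and 1163.2 in young intact cords, 1.26-fold higher (log2 fold change 0.34, standard error 0.10, adjusted p = 0.0109). The arrays did not overlap at either age. Without aged injured replicate 1, the highest of the aged injured arrays in Xbp1, the log2 fold change in aged cord was 0.27 (limma, adjusted p = 0.00744). Of the 3 other Xbp1 probes, 2 passed over all probes in aged cord (adjusted p = 0.00636 and 0.0180) and none in young cord, where their log2 fold changes were 0.16 to 0.32. With the mean of all Xbp1 probes the call in young cord ended (adjusted p = 0.0837). The spliced form was not measured apart from the whole.

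Atf6, the sensor that is itself a transcription factor, was 152.3, 127.6 and 151.6 in aged injured cords, against 104.7, 114.4 and 115.7 in aged intact cords, 1.29-fold higher with no overlap (log2 fold change 0.36, standard error 0.11, limma, adjusted p = 0.00913). In young mice it was 157.1, 124.0 and 128.9 in injured cords, against 120.5, 114.9 and 123.9 in intact cords. The lowest injured array and the highest intact array were nearly equal, and the log2 fold change of 0.18 did not pass (adjusted p = 0.147). A second probe, with lower signals, rose at both ages by 0.66 and 0.64 on the log2 scale (adjusted p over all probes = 0.00398 in aged and 0.00581 in young). With the mean of all Atf6 probes the calls changed places, to adjusted p = 0.0836 in aged and 0.00540 in young cord.

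Herpud1 encodes an ER membrane protein that helps to clear misfolded proteins through ER-associated degradation. It fell in aged injured cord. Its signal was 189.6, 177.1 and 206.7 in aged injured cords, against 271.1, 251.0 and 280.0 in aged intact cords, 1.40-fold lower with no overlap (log2 fold change -0.49, standard error 0.17, limma, adjusted p = 0.0215). That call ended without aged injured replicate 2 (adjusted p = 0.0604), aged intact replicate 1 (0.0534) or aged intact replicate 3 (0.0627). In young mice it was 233.2, 205.2 and 204.3 in injured cords, against 204.7, 215.5 and 347.9 in intact cords, and the arrays overlapped (log2 fold change -0.22, adjusted p = 0.271). Replicate 3 of the young intact group stood far above the other two, and without it the log2 fold change was 0.03. The second Herpud1 probe was also highest on that array, at 265.7. Its log2 fold change after injury was -0.585 in aged and -0.464 in young cord (limma, adjusted p over all probes = 0.0247 and 0.0761).

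**Figure D2:**
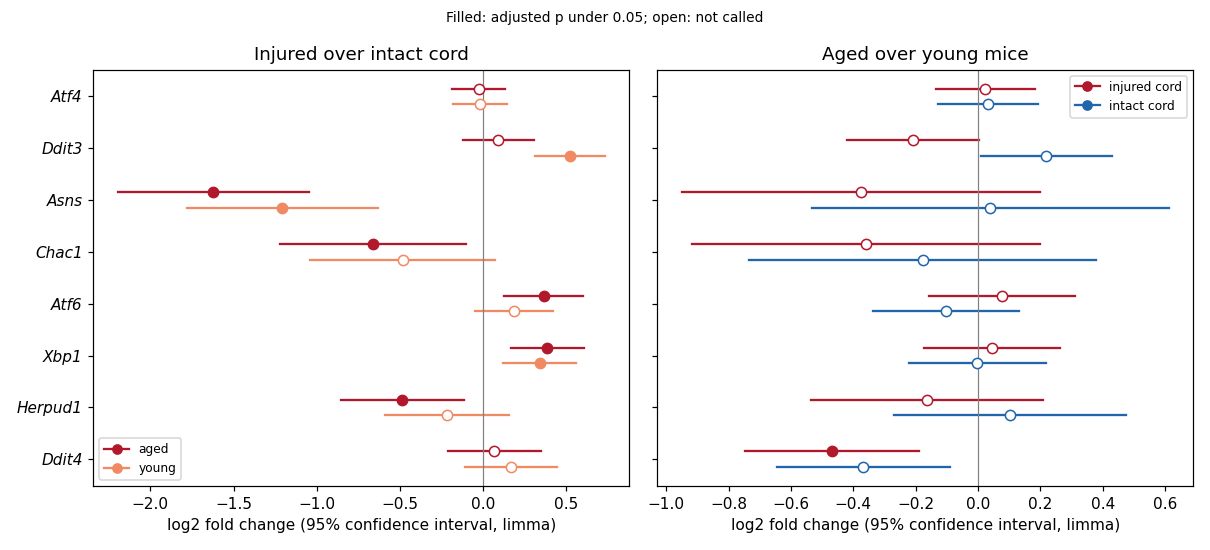
Log2 fold changes with 95% confidence intervals from limma for the 8 tested genes, for injured over intact cord (left) in aged and young mice, and for aged over young mice (right) in injured and intact cord. Filled points have an adjusted p under 0.05. Asns lay farthest from 0 after injury, at -1.62 in aged and -1.21 in young cord, and Ddit4 was the only gene called for age, at -0.47 in injured cord.

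For age, 1 of the 8 tested genes was called. Between aged and young injured cords it was 1 lower and none higher, against 4.41% of all genes called higher and 4.58% called lower in aged mice. The gene was Ddit4, whose signals given above were all lower in aged than in young injured cords (258.6 ± 49.3 against 354.3 ± 28.7, SD, n = 3 each), 1.37-fold lower (log2 fold change -0.47, standard error 0.13, limma, adjusted p = 0.0438). The call rested on the full set of arrays: it was kept in 1 of 12 fits that each left out 1 array (the one without aged injured replicate 2), and the adjusted p rose to as much as 0.133 in the others. In a fit of the injured arrays alone it was 0.193, and 0 of all genes tested were called there. In intact cord Ddit4 lay lower in aged mice too, at 244.1 ± 7.93 against 316.0 ± 34.0 (SD, n = 3 each) with no overlap, but the log2 fold change of -0.37 did not pass (adjusted p = 0.313), except in a fit of the intact arrays alone (adjusted p = 0.0230). The test of a difference between the ages in its response to injury did not pass (log2 difference -0.10, 95% confidence interval -0.49 to 0.29, adjusted p = 0.785).

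Ddit3 was lower in aged than in young injured cords on every array (183.6 ± 15.3 against 212.1 ± 13.7) and higher in aged than in young intact cords on every array (172.1 ± 9.38 against 148.2 ± 15.5, SD, n = 3 each). Neither difference passed (log2 fold change -0.21, limma, adjusted p = 0.169 and 0.22, adjusted p = 0.467). The second Ddit3 probe, under 50 in every group, did not show the difference in injured cord. Its log2 fold change of aged over young was 0.009 in injured and 0.59 in intact cord (limma, adjusted p over all probes = 0.987 and 0.394). Of the other 6 tested genes, the log2 fold change of aged over young injured cord ran from -0.38 (Asns) to 0.08 (Atf6), and none was called. That of Asns was -0.02 without aged injured replicate 1. The second Atf4 probe lay higher in aged mice by 0.38 in injured and 0.35 in intact cord (limma, adjusted p over all probes = 0.12 and 0.419). In intact cord none of the 8 genes was called by limma (2 had an unadjusted p under 0.05, Ddit3 and Ddit4), where 0.542% of all genes were higher and 0.266% lower in aged mice. None was called for a difference between the ages in its response to injury (1 had an unadjusted p under 0.05, Ddit3), where 0.133% of all genes were called in the positive and 0.304% in the negative direction.

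This list and those that follow were chosen with earlier results of these data known, so their shares are given as descriptions. Of 18 ER chaperones and foldases, 16 were higher and 2 lower in aged injured cord (88.9% and 11.1%, against 35.6% and 39.9% of all genes tested). In young injured cord 9 were higher, 2 lower and 7 not called (50% and 11.1% called, against 33.9% and 34.1% of all genes). Their median log2 fold changes were 0.80 and 0.29, against -0.04 and -0.005 over all genes tested. For aged over young mice their median was 0.22 in injured and -0.22 in intact cord. Without aged injured replicate 1, 13 were higher in aged cord and 13 in young cord. Sdf2l1, a partner of the ER chaperone BiP, and P4hb, a protein disulfide isomerase, had the largest increases in aged cord. P4hb was 1657 ± 403 in aged injured against 526.4 ± 14.2 in aged intact cords and 1290 ± 154 in young injured against 540.6 ± 10.9 in young intact cords (SD, n = 3 each), 3.15-fold and 2.39-fold higher (limma, adjusted p = 3.83e-06 and 3.55e-05). The 2 lower genes were the same at both ages, the co-chaperone Dnajb9 (log2 fold change -0.26 in aged and -0.15 in young cord) and the oxidase Ero1a (-0.22 and -0.32). In aged cord 1 of these 2 was left without aged intact replicate 3 or aged injured replicate 1 or 3. In young cord Dnajb9 was called in 3 of 12 fits that each left out 1 array (adjusted p up to 0.124).

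**Figure D3:**
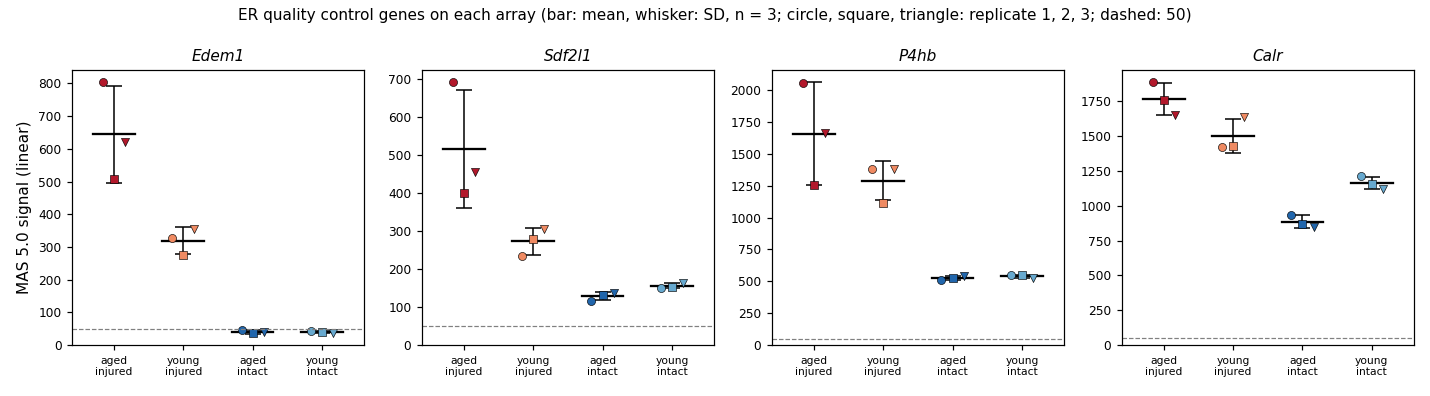
Signals (MAS 5.0, linear scale) of Edem1, Sdf2l1, P4hb and Calr on each array, by group, with means as bars and SD as whiskers (n = 3) and a dashed line at 50. Edem1 lay under 50 on every intact array and at 275 to 804 on the injured ones, and its aged injured signals were all above its young injured signals.

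Of 16 tested genes of ER-associated degradation, the route that returns misfolded proteins to the cytosol, 10 were higher and 4 lower in aged injured cord and 8 were higher and 3 lower in young injured cord (median log2 fold change 0.28 and 0.23). These were 62.5% higher and 25.0% lower in aged cord, against 35.6% and 39.9% of all genes, and 50% and 18.8% in young cord, against 33.9% and 34.1%. Edem1, a lectin that marks misfolded glycoproteins for degradation, had the largest increase of them. Its signal was 803.8, 508.8 and 621.6 in aged injured and 328.0, 274.8 and 355.9 in young injured cords, against 45.9, 36.0 and 38.9 in aged intact and 42.0, 39.6 and 36.6 in young intact cords. Edem1 passed the cutoff only through injured cord, as Atf3, Eif4ebp1, Shmt2, Atf6b, Trib1 and Ppp1r15a of the other lists did, and Eif2ak1 only through intact cord. Their places among the tested genes favor a rise, or a fall for Eif2ak1, so their calls for injury are given as descriptions. With the intact means set to 50, Edem1 was at least 12.9-fold higher in aged and 6.39-fold higher in young injured cord (limma, adjusted p = 1.57e-08 and 1.03e-07). Derl2, a part of the export channel, was 2.48-fold higher in aged cord and 1.74-fold in young cord, and Edem2 2.01-fold and 2.09-fold. The ubiquitin enzyme gene Ube2j1 fell (log2 fold change -0.73 and -0.72), as did Ufd1, a cofactor of the ATPase VCP (-0.70 and -0.46). Genes of the pathway to which Herpud1 belongs thus moved in both directions.

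A list of 11 tested genes held the sensors, the eIF2α kinases and phosphatase subunits, and genes that act on them such as the ATF6 proteases. Of these, 7 were higher and 1 lower in aged injured cord (63.6% and 9.09%, against 35.6% and 39.9% of all genes) and 6 were higher and 1 lower in young injured cord (54.5% and 9.09%, against 33.9% and 34.1%), with medians of 0.29 and 0.24. Eif2ak2, the kinase PKR that senses double-stranded RNA, rose 2.46-fold in aged and 3.15-fold in young cord (limma, adjusted p = 1.81e-04 and 4.88e-05). Ern1, which encodes IRE1α, rose 1.68-fold and 1.72-fold (adjusted p = 0.00222 and 0.00185). Eif2ak1, the heme-regulated kinase, fell in both, but it passed the cutoff only through intact cord. The 6 higher genes in young cord became 3 when young intact replicate 3 or young injured replicate 1 was left out, and the 1 lower gene in aged cord was 2 without aged intact replicate 3.

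**Figure D4:**
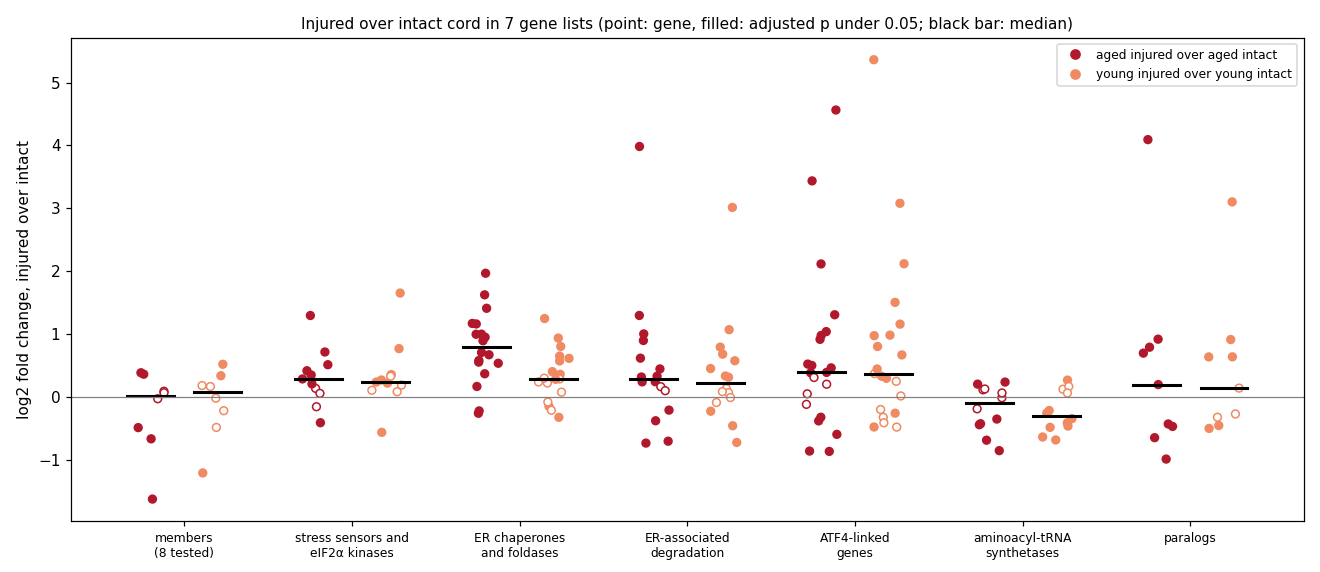
Log2 fold changes of injured over intact cord for each tested gene of 7 lists (horizontal axis), in aged (red) and young (orange) mice, with filled points for an adjusted p under 0.05 and black bars for medians. Chaperones had a median of 0.80 in aged and 0.29 in young cord, and tRNA synthetases -0.10 and -0.30.

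Of 21 tested genes known as ATF4 targets or linked to amino acid supply, 12 were higher and 5 lower in aged cord (57.1% and 23.8%, against 35.6% and 39.9% of all genes), and 12 were higher and 2 lower in young cord (57.1% and 9.52%, against 33.9% and 34.1%). The medians were 0.39 and 0.37. Atf3, a stress-induced transcription factor, and Eif4ebp1, an inhibitor of cap-dependent translation, led the increases. Atf3 was 468 ± 29.7 in aged injured and 310 ± 49.3 in young injured cords and under 50 in both intact groups, at least 9.37-fold and 6.20-fold higher (limma, adjusted p = 8.93e-06 and 3.92e-06). Eif4ebp1 was at least 6.75-fold and 4.53-fold higher (adjusted p = 4.42e-08 and 1.02e-07). Atf3, Eif4ebp1 and Shmt2 passed the cutoff only through injured cord, which favors a rise, so their calls are given as descriptions. Genes of amino acid synthesis and transport stood on both sides: Slc3a2, Gpt2, Aldh18a1 and Shmt2, named after their values were seen, were higher at both ages. The lower genes in aged cord were Psat1 and Slc7a1, the lipoprotein receptor gene Vldlr, the serine synthesis gene Phgdh (log2 fold change -0.86, adjusted p = 0.00118) and the transporter gene Slc1a4 (-0.86, adjusted p = 0.00262). In young cord they were Psat1, likewise of serine synthesis (-0.48, adjusted p = 0.00311), and the transporter gene Slc7a1 (-0.26, adjusted p = 0.0475). The 5 lower genes in aged cord were 3 without aged intact replicate 3. The 2 in young cord were 5 without aged injured replicate 1, and 1 without young intact replicate 1 or 3, young injured replicate 1, or aged intact replicate 1 or 3.

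Of 12 aminoacyl-tRNA synthetases, which charge tRNAs with amino acids and of which many are ATF4 targets, 2 were higher and 5 lower in aged cord and 1 was higher and 8 lower in young cord (median -0.10 and -0.30). The lower share in aged cord, 41.7%, was close to the 39.9% of all genes, and that in young cord was 66.7%, against 34.1%. Nars, which charges the tRNA for asparagine, the product of Asns, was 1.78-fold lower in aged and 1.54-fold lower in young cord (limma, adjusted p = 1.75e-04 and 0.00171). Gars was 1.60-fold lower at both ages (adjusted p = 8.14e-05 and 1.22e-04). The 5 lower genes in aged cord were 3 without aged injured replicate 1, and the 8 in young cord were 4 without young injured replicate 1. The 2 higher genes in aged cord, Sars and Lars, were 1 without aged intact replicate 1 or 3 or aged injured replicate 3, and 0 without aged intact replicate 2 or aged injured replicate 1.

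**Figure D5:**
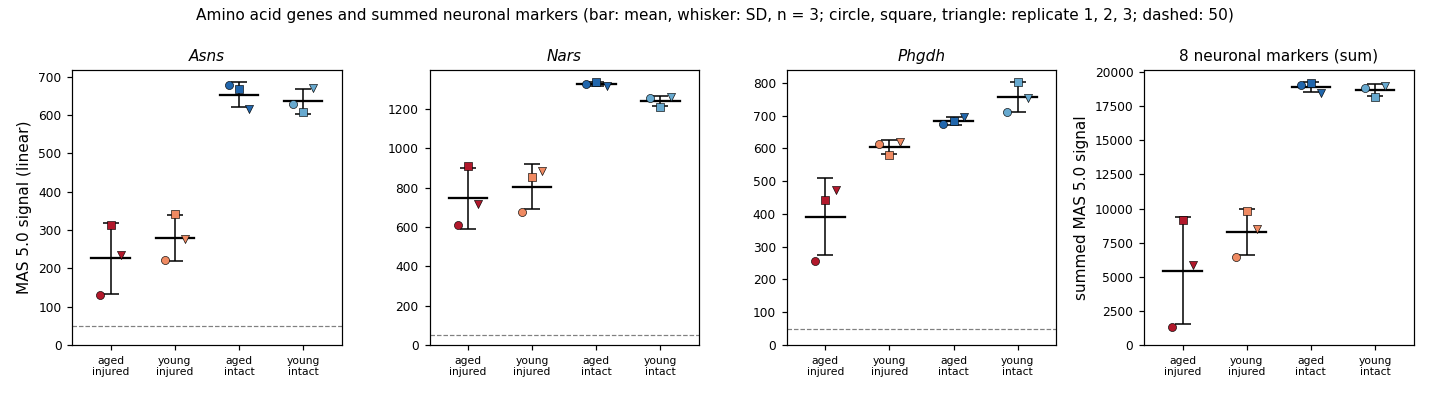
Signals (MAS 5.0, linear scale) of Asns, Nars and Phgdh and the summed signal of 8 neuronal markers on each array, by group, with means as bars and SD as whiskers (n = 3). All 4 were lower on every injured array than on any intact one, and aged injured replicate 1 (circle) was the lowest in each.

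Paralogs of the 10 genes moved in both directions. Of 9 tested, 5 were higher and 4 lower in aged and 4 were higher and 2 lower in young injured cord. The lower shares were 44.4% and 22.2%, against 39.9% and 34.1% of all genes, and the higher shares 55.6% and 44.4%, against 35.6% and 33.9%. Sesn1, a sestrin like Sesn2, was 1.89-fold higher in aged and 1.56-fold higher in young injured cord, and Sesn3 was 1.96-fold and 1.42-fold lower (limma, adjusted p = 9.45e-05, 0.00150, 9.40e-05 and 0.00928). Chac2 was lower at both ages (log2 fold change -0.65 and -0.45), as Chac1 was in aged cord. Trib1 lay at 51.6 ± 4.54 in aged injured and 36.7 ± 3.82 in young injured cords, against 3.87 ± 3.42 in aged intact and 6.20 ± 6.18 in young intact cords (SD, n = 3 each), an order like that of Trib3. Trib1 passed the cutoff only through injured cord. Creb3l2, an ER-bound relative of ATF6, rose 1.63-fold in aged and 1.89-fold in young cord.

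Between aged and young injured cords, 6 of the 87 tested genes of these lists passed, 4 higher (4.60%, against 4.41% of all genes) and 2 lower (2.30%, against 4.58%), which does not set the lists apart from other genes. In a fit of the injured arrays alone, 0 of all genes tested were called, so these 6 calls ended there. Edem1 was 2.02-fold higher in aged mice (log2 fold change 1.00, standard error 0.16, limma, adjusted p = 0.00993, called in 12 of 12 fits that left out an array). Sdf2l1 was 692.0, 398.6 and 455.1 in aged injured and 234.9, 279.1 and 305.0 in young injured cords, 1.89-fold higher with no overlap (adjusted p = 0.0177, called in 10 of 12, lost without young injured replicate 1 or 2). Sars was 1.48-fold higher (adjusted p = 0.00580, called in 12 of 12) and Pck2, a mitochondrial enzyme of gluconeogenesis, 1.33-fold higher (adjusted p = 0.0349, called in 4 of 12). Phgdh was 1.55-fold lower (adjusted p = 0.0415, called in 3 of 12) and Mbtps1, the protease that cuts ATF6, 1.23-fold lower (adjusted p = 0.0381, called in 4 of 12). Phgdh was 256.5, 443.9 and 472.8 in aged injured cords, against 613.9, 579.5 and 620.8 in young injured cords, lowest on aged injured replicate 1. Without aged injured replicate 2, 7 chaperones were called higher in place of 1. Of the markers, 4 of 8 for macrophages and microglia were higher and 3 of 6 for astrocytes lower in aged than in young injured cords, and their part in these differences was not tested. In intact cord 1 gene of the lists passed, the chaperone Calr, 1.32-fold lower in aged mice (adjusted p = 0.0368, called in 5 of 12).

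Genes whose pattern over the 12 arrays lay nearest to each tested gene were found by the mean absolute difference of log2 signals, each gene centred on its own mean, among the 10511 genes. Asns was nearest to Nmnat2, an enzyme that maintains axons, and Cyfip2, a regulator of actin at synapses (mean differences 0.06 and 0.06, against a median of 0.71 over all genes). Xbp1 was nearest to Emg1 and Copb2, a subunit of the coat of Golgi vesicles (0.06 each), and Atf6 to Nup214, a nuclear pore protein, and Babam2 (0.05 and 0.06). Atf4 was nearest to Rbm17 and Cnep1r1 (0.04 each) and Ddit3 to Tjp1, a tight junction protein, and Stk40 (0.07 and 0.08). The nearest to Ddit4 were Fam214a and Chst2 (0.105 each), to Herpud1 Bbs1 and Ddt (0.10 and 0.12), and to Chac1 Clip3 and Zfp27 (0.11 each). This likeness is a description over arrays that fall into injured and intact clusters.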

How the data were processed

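The authors hybridized total RNA of each cord to 1 array and converted the images to signal intensities with MAS 5.0, and the deposited values are linear intensities scaled to a trimmed mean of 100 per array. Only the 34958 of 45101 probes that the platform annotation pairs with 1 gene were named (932 pair with several, 9211 with none). The 10 genes and all lists were chosen with earlier results of these data known. The log2 signals of the 10511 genes with a group mean above 50 were fitted with limma 3.58.1 (R 4.3.3), with 1 mean per group over the 12 arrays and trended eBayes. Adjusted p values are Benjamini-Hochberg over all genes tested, called under 0.05, and the script was tested on simulated data. The study's methods state cutoffs of signal and ratio but no test. Where a group mean was under 50, a fold is "at least", with that mean set to 50. All 10 genes were named. From each wider list, up to 2 called genes per direction and comparison with the largest log2 fold change were named, or all where 5 or fewer were called. For each tested gene, the 2 of nearest pattern were named. Arrays share no known batch, their number limits the precision, and detection calls were not used here. Promoters came from RefSeq (GRCm38.p6). Alternatives were quantile normalization, median centring, no cutoff or a cutoff of 100, the mean of all probes, an offset of 16, the compared groups alone, no trend, a replicate block, the methods' cutoffs, and leaving out each array.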

Additional observations from a re-analysis of the deposited data

Results flagged for a closer look

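The response of Calr, which encodes the ER chaperone calreticulin, differed between the ages by the test of the difference itself. Its signal was 1885.9, 1762.6 and 1655.6 in aged injured cords, against 936.0, 869.1 and 846.1 in aged intact cords. It was 1425.0, 1431.9 and 1640.9 in young injured cords, against 1212.6, 1159.5 and 1120.8 in young intact cords. Calr was 2.00-fold higher after injury in aged and 1.29-fold higher in young mice, and the difference in log2 fold change was 0.64 (standard error 0.11, limma, adjusted p = 0.0376). The aged arrays lay above the young ones after injury and below them without it. The call was kept in 3 of 12 fits that each left out 1 array, with adjusted p values up to 0.118.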

How the results depend on the processing

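Of the 8 tested genes, 5 were called for injury in aged cord, and 3 to 5 with 1 array left out. Of all genes tested, 35.6% were called higher and 39.9% lower there. The 5 became 4 with a cutoff of 100 or with only the groups compared. In young cord 3 became 4, with Chac1, by quantile normalization, with only the groups compared or without aged injured replicate 1. With no cutoff on signal, 6 of the 10 genes were called in aged and 4 in young cord, Trib3 among them. By the methods' cutoffs alone (signal above 50, ratio above 2) 1 gene, Asns, was called in aged cord, and likewise 1 in place of 3 in young cord. Over all genes these cutoffs called 3267 in aged and 2469 in young cord. Between aged and young injured cords the 1 call, Ddit4, became 0 with median centring, no cutoff on signal, the mean of all probes, only the groups compared, no trend or the methods' cutoffs, and 0 to 1 with 1 array left out. In intact cord the count of 0 became 1, Ddit4, with only the groups compared, where 494 in place of 85 of all genes tested were called. With the replicate number as a replicate block, the counts were 5, 3, 1, 0 and 0 for the 5 comparisons, the same as without it. Nothing in the labels says that same-numbered mice belong together. Their deviations correlated at 0.595 and 0.667 for replicates 1 and 2 of aged and young injured cord, but at 0.015 for replicate 3 and at -0.113 to 0.089 between the other groups, so the numbers were not used as pairs.

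Directions turned only in log2 fold changes that were not called. With the mean of all probes these were Atf4, 0.033 in aged and 0.018 in young injured over intact cord and 0.016 in the difference of the responses; Atf6, -0.06 for aged over young injured cord, 0.32 for intact cord and -0.38 for the difference; Xbp1, 0.002, and Herpud1, -0.039, for aged over young intact cord. With quantile normalization Atf4 was 0.023 in young injured over intact cord, and Xbp1 was -0.015 for aged over young injured cord, 0.001 for intact cord and -0.015 for the difference. With median centring the difference for Atf4 was 0.038. With 1 array left out, Atf4 ran from -0.084 to 0.031 in aged and -0.072 to 0.031 in young injured over intact cord, from -0.034 to 0.082 for aged over young injured cord, and from -0.065 to 0.051 for the difference. Xbp1 ran from -0.074 to 0.144 for aged over young injured cord, -0.042 to 0.059 for intact cord and -0.073 to 0.145 for the difference. Ddit4 ran from -0.084 to 0.152 in aged injured over intact cord, Herpud1 from -0.357 to 0.026 in young injured over intact cord and -0.036 to 0.347 for aged over young intact cord, and Chac1 from -0.415 to 0.15 for the difference. The cause was not tested. Signals near 50 limit Chac1, and those under 50 Trib3 and Sesn2.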
